A study of Mus musculus with 74 samples.

Results

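Txnip, its alpha-arrestin relatives Arrdc3 and Arrdc4, and the transcription factor genes Mlx, Mlxip and Mlxipl were followed through the lipopolysaccharide (LPS) response of macrophage-like RAW264.7 cells and of 2 lines with little RNA of H3f3a, a gene for the replacement histone H3.3. These 6 genes were taken by name, out of 24851 genes measured. Txnip was selected on its measured level, which earlier work on these files had shown to be lower in RAW264.7 after 60 min of LPS. Every Txnip comparison that uses RAW264.7 libraries of 0 or 60 min is therefore given as a description, without a test. The remaining comparisons of Txnip were tested, as were the other 5 genes, except where Mlxipl is given as reads. All 6 genes and the tests were chosen with earlier results of these data known.

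Alpha-arrestins are adaptors that carry cell surface proteins to ubiquitin ligases of the NEDD4 family and so to the endosome. TXNIP, the best known of them, binds thioredoxin and restrains glucose uptake by drawing the transporter GLUT1 inside the cell. Its transcription is driven by a glucose-sensing pair in which MLX dimerizes with a Mondo factor, either MondoA (encoded by Mlxip) or ChREBP (encoded by Mlxipl), and binds carbohydrate response elements. In macrophages LPS turns metabolism towards glycolysis, which places Txnip where glucose uptake and the inflammatory response meet.

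The RNA came from line 264, from line 3205 and from RAW264.7, a mouse macrophage-like leukaemia line. Each was sampled without LPS (0 min) and after 60 and 120 min of LPS, with 2 libraries per line and time, 18 in all. The labels name no LPS dose for these cells. The series describes hypomorphic and CRISPR-edited H3f3a and H3f3b knockout lines beside the wild type, and the labels do not say which description belongs to 264 and which to 3205. Each of these is 1 derived line, so an effect of the edit and a trait of that line cannot be told apart. Values are reads per gene divided by a size factor of the library, called normalized reads, and they allow comparison between libraries but not between genes. The libraries held 13084927 to 53860392 reads, the shallowest being the second RAW264.7 library at 60 min. Of the targeted genes, H3f3a, which encodes H3.3, lay at 172 to 236 normalized reads in line 264 and at 37.5 to 76.2 in line 3205, against 2055 to 3109 in RAW264.7. H3f3b, which encodes the same protein, lay at 5642 to 17765 in line 264 and at 7177 to 13284 in line 3205, against 13623 to 34155 in RAW264.7. All 9 macrophage marker genes examined averaged at least 1 normalized read in each line. Their summed level was 122100 to 195200 in line 264 and 186800 to 244900 in line 3205, against 349800 to 463000 in RAW264.7. The summed level of B cell markers was 1.82 to 6.11 in line 264 and 22.2 to 152 in line 3205, against 1.48 to 5.44 in RAW264.7, and T or NK cell, neutrophil and fibroblast markers summed to at most 36.8 in any library. The part of these marker levels in the line differences below was not tested, and fewer cells of a kind and less RNA per cell cannot be told apart in such bulk RNA. Nothing in the labels says that the 2 libraries of a group came from separate cultures, so p-values measure the spread between these samples only.

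The promoters of Txnip and Arrdc4 are shown first because the MLX and Mondo pair binds carbohydrate response elements. Txnip (gene ID 56338) lies at chr3:96557957-96561857 and Arrdc4 (gene ID 66412) at chr7:68736994-68749238 of GRCm38.p6, the RefSeq release of mm10. The windows below run from 250 bases before to 50 after the RefSeq start site, at chr3:96557707-96558006 on the plus strand for Txnip and at chr7:68749189-68749488 on the minus strand for Arrdc4. Capitals mark the carbohydrate response element form in Txnip, CACGNG, 5 bases and CACGNG again, and the E-box CACGTG in Arrdc4.
Txnip promoter: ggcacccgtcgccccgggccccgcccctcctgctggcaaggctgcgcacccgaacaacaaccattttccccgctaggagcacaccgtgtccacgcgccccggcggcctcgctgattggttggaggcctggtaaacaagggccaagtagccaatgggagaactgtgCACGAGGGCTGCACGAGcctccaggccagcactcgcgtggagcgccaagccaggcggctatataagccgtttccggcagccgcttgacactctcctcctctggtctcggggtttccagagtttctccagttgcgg
Arrdc4 promoter: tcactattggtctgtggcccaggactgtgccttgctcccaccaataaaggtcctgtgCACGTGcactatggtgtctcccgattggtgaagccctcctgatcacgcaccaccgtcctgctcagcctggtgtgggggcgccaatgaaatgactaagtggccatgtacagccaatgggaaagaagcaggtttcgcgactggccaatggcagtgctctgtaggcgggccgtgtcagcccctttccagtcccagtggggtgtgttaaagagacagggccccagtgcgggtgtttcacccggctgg
The paired form began 85 bases before the Txnip start site. It occurred, on either strand, in 16 of 32851 promoter windows (0.0487%), and in no other of the 9 windows of these 6 genes. The E-box occurred in 7.15% of all windows and stood 193 bases before the start of Arrdc4, 40 bases before that of Mlx and 98 bases before 1 of the 2 starts of Mlxipl. Txnip also held the FOXO motif GTAAACA 121 bases before its start, found in 3.65% of windows. CCAAT boxes, found in 37.4% of windows, numbered 2 in Txnip and 6 in Arrdc4. The 3 Arrdc3 windows held a CCAAT box in 2 and no match to the other motifs. These matches describe the letters of the windows and say nothing about binding in these cells.

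Txnip RNA was lower after LPS than before it in all 3 lines, by the most in RAW264.7. In line 264 it stood at 19107 and 16041 normalized reads at 0 min, 15329 and 12330 at 60 min, and 9891 and 11513 at 120 min. In line 3205 it stood at 23625 and 15414 at 0 min, 7557 and 7335 at 60 min, and 6817 and 6480 at 120 min. In RAW264.7 it stood at 15315 and 11368 at 0 min, 1539 and 1687 at 60 min, and 1950 and 2029 at 120 min. Within each line every LPS library lay below both unstimulated libraries. The lowest read count behind these values was 639, in the shallowest library.

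**Figure D1:**
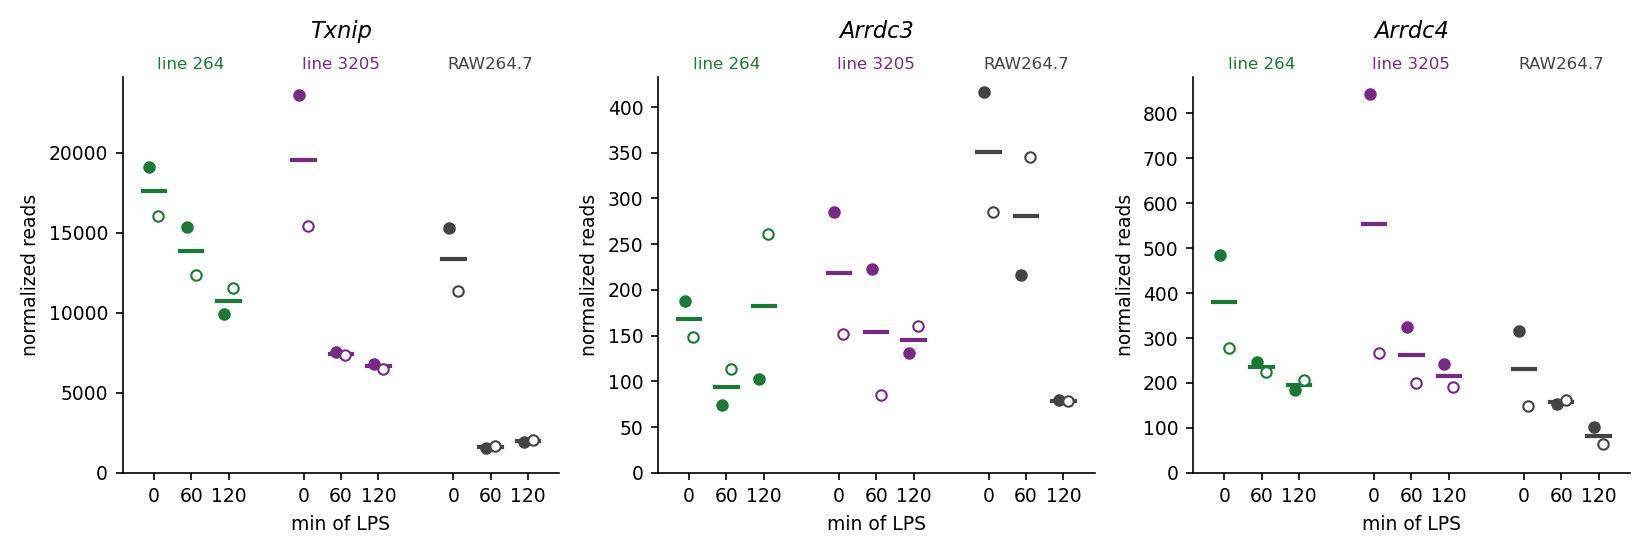
Normalized reads of Txnip, Arrdc3 and Arrdc4 (vertical axes, each from 0) in the 18 libraries, by line and min of LPS. Filled points are replicate 1, open points replicate 2 and bars the mean of both; Txnip in RAW264.7 lies between 1539 and 2029 after LPS, below every library of the other lines.

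Ordered by mean, Txnip was lowest in RAW264.7 at 60 min (1613) and 120 min (1989), followed by line 3205 at 120 min (6649) and 60 min (7446). Line 264 at 120 min (10702), RAW264.7 at 0 min (13342) and line 264 at 60 min (13830) came next. Unstimulated line 264 (17574) and line 3205 (19519) were highest. The ranges of unstimulated RAW264.7 overlapped those of its neighbours on each side in this order, and the ranges of the 2 highest groups overlapped each other. The ranges of all other neighbouring groups did not overlap.

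The ratio of LPS to unstimulated Txnip lay closest to 1 in line 264 and farthest from it in RAW264.7, a difference given without a test. Txnip was 1.27-fold lower at 60 min than at 0 min in line 264, 2.62-fold lower in line 3205 and 8.27-fold lower in RAW264.7, as ratios of means. At 120 min it was 1.64-fold lower in line 264, 2.94-fold lower in line 3205 and 6.71-fold lower in RAW264.7. In line 3205 the fall passed the test at 60 min (limma on log2(normalized reads + 1), log2 fold change -1.36 ± 0.22 SE, adjusted p = 0.0133) and at 120 min (-1.52 ± 0.21, adjusted p = 0.00306). The 60 min call was lost without the first line 3205 library of 0 min or without either of its 60 min libraries (adjusted p up to 0.116), while the 120 min call held without any 1 library (up to 0.0249). In line 264 the change did not pass at 60 min (limma, -0.35 ± 0.22, adjusted p = 0.957) or at 120 min (-0.71 ± 0.21, adjusted p = 0.0936). With the replicate number as a block the 120 min value of line 264 passed (limma, adjusted p = 0.0199). For RAW264.7 the log2 fold changes were -3.03 ± 0.22 at 60 min and -2.73 ± 0.21 at 120 min, given without a test. The same-numbered libraries told the same order: the 60 min over 0 min ratio was 0.802 and 0.769 in line 264, 0.320 and 0.476 in line 3205, and 0.101 and 0.148 in RAW264.7. In the authors' deposited table, whose p-values test for a log2 fold change beyond 1 in size, the 60 min change of Txnip in line 3205 has a log2 fold change of -1.39 and an adjusted p of 1.

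Between the lines, the ratios of Txnip were smaller before LPS than after it. At 0 min it was 1.32-fold higher in line 264 and 1.46-fold higher in line 3205 than in RAW264.7, and neither edited line overlapped RAW264.7 in range. At 60 min it was 8.57-fold higher in line 264 and 4.62-fold higher in line 3205. At 120 min, the time at which this comparison could be tested, Txnip was 5.38-fold higher in line 264 (limma, log2 2.42 ± 0.21, adjusted p = 6.4e-05) and 3.34-fold higher in line 3205 (limma, 1.74 ± 0.21, adjusted p = 0.000555). Those calls held without any 1 library (adjusted p up to 0.00142 in line 264 and 0.00847 in line 3205). The LPS response of line 264 exceeded that of RAW264.7 by log2 2.68 ± 0.31 at 60 min and 2.02 ± 0.30 at 120 min, and that of line 3205 by 1.67 ± 0.31 and 1.21 ± 0.30, a positive value meaning a smaller fall. All 4 values share the RAW264.7 libraries that chose the gene, so they carry no test. A second transcript, the long noncoding RNA Gm15441, spans all 3901 bases of Txnip, and the counting is not stated to use strand, without which reads of the 2 cannot be told apart. Its own count was 10.1 to 87.3 normalized reads over the 18 libraries.

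**Figure D2:**
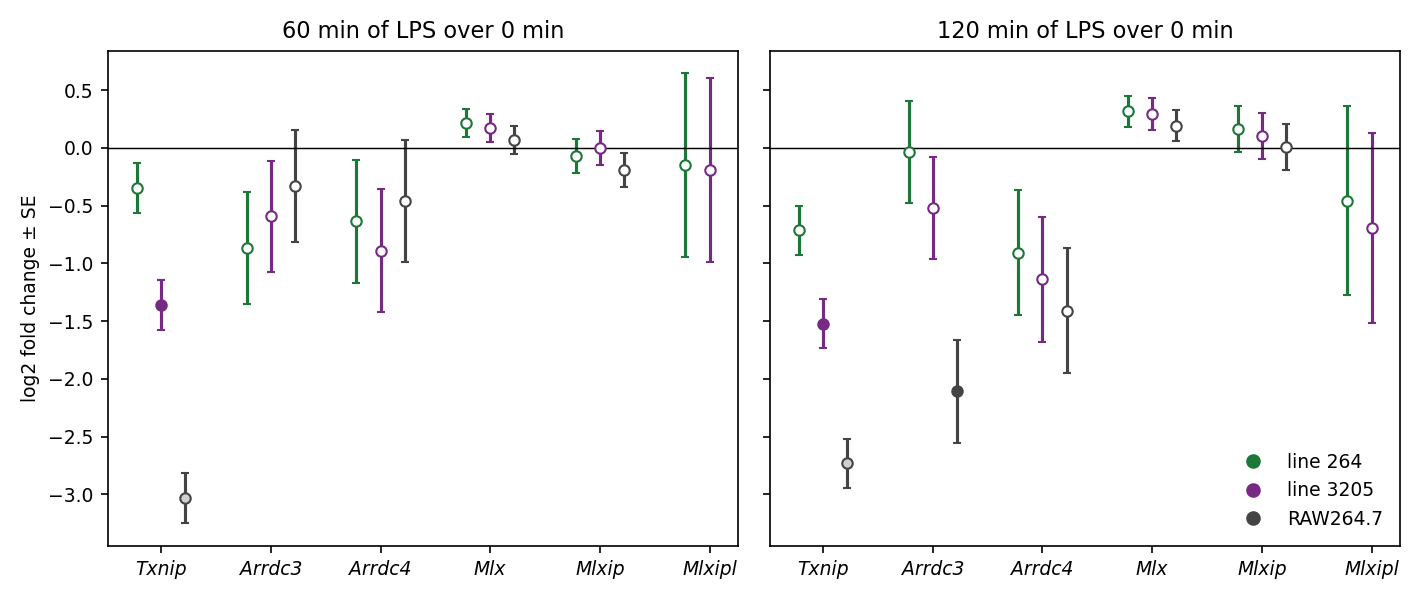
Limma log2 fold change ± SE (vertical axis) of the 6 genes at 60 and 120 min of LPS over 0 min, by line. Filled points passed an adjusted p of 0.05, open points did not, and grey-filled points (Txnip in RAW264.7) carry no test; Mlxipl in RAW264.7 is left out because it had at most 2 reads per group, and Txnip lies lowest in RAW264.7 at both times.

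Arrdc3 (chr13:80883384-80896042), whose protein guides beta-adrenergic and other receptors to endosomal sorting, was lower in RAW264.7 at 120 min but varied widely elsewhere. In line 264 it stood at 188 and 149 normalized reads at 0 min, 73.7 and 113 at 60 min, and 102 and 262 at 120 min. Line 3205 had 285 and 152 at 0 min, 223 and 84.8 at 60 min, and 131 and 160 at 120 min. RAW264.7 had 416 and 285 at 0 min, 217 and 346 at 60 min, and 79.9 and 78.3 at 120 min. The RAW264.7 libraries at 120 min lay below both unstimulated ones, whereas the ranges at 120 and 0 min overlapped in line 264 and in line 3205. Arrdc3 fell in RAW264.7 at 120 min (limma, log2 -2.11 ± 0.44, adjusted p = 0.0145), a call lost when any 1 of the 4 libraries was left out (adjusted p 0.0566 to 0.123). At 120 min its log2 fold change was -0.03 ± 0.44 in line 264 (limma, adjusted p = 0.991) and -0.52 ± 0.44 in line 3205 (adjusted p = 0.674). The response of line 264 exceeded that of RAW264.7 by 2.08 ± 0.63 (limma, adjusted p = 0.962) and that of line 3205 by 1.59 ± 0.63 (adjusted p = 0.954), so a difference between the lines was not established. At 60 min Arrdc3 was at 73.7 and 113 in line 264, against 217 and 346 in RAW264.7 (limma, log2 -1.57 ± 0.48, adjusted p = 0.0551), and this passed with the replicate block (adjusted p = 0.0213). At 120 min the sign was the other way, at 102 and 262 in line 264, against 79.9 and 78.3 in RAW264.7 (limma, log2 1.04 ± 0.44, adjusted p = 0.177), which passed without the first line 264 library of 120 min (adjusted p = 0.0355).

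Arrdc4, the closest relative of Txnip in its regulation by glucose and likewise a brake on glucose uptake, pointed down with LPS in every line without passing the main test. It stood at 484 and 277 normalized reads at 0 min, 246 and 225 at 60 min, and 184 and 207 at 120 min in line 264. In line 3205 it stood at 842 and 267 at 0 min, 325 and 201 at 60 min, and 241 and 192 at 120 min. In RAW264.7 it stood at 315 and 148 at 0 min, 153 and 161 at 60 min, and 101 and 64.4 at 120 min. Replicate 1 was the higher of both unstimulated libraries in each line, by up to 3.16-fold in line 3205. At 120 min every library lay below the unstimulated libraries of its line. The 120 min log2 fold changes were -0.91 ± 0.54 in line 264 (limma, adjusted p = 0.444), -1.14 ± 0.54 in line 3205 (adjusted p = 0.336) and -1.41 ± 0.54 in RAW264.7 (adjusted p = 0.143). With the replicate block the RAW264.7 value passed (limma, adjusted p = 0.0144). At 120 min Arrdc4 was 2.36-fold higher in line 264 than in RAW264.7 (limma, log2 1.26 ± 0.54, adjusted p = 0.179) and 2.61-fold higher in line 3205 (adjusted p = 0.126). With the block both passed (limma, adjusted p = 0.022 in line 264 and 0.0126 in line 3205). Unstimulated line 3205 stood at 1.13 ± 0.53 over RAW264.7 (limma, adjusted p = 0.212), which passed with the block (adjusted p = 0.0318) and without its second, lower library (adjusted p = 0.0303).

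Of the members tested in each LPS response, few passed. At 60 min 0 of 6 passed in line 264, 1 of 6 in line 3205 and 0 of 4 in RAW264.7, with the 1 in line 3205 lower. In RAW264.7 Txnip carries no test and Mlxipl, with at most 2 reads per group, is left out. Of all 17301 tested genes 1.19% passed in line 264 (0.821% higher, 0.37% lower), 1.23% in line 3205 (0.948% higher, 0.277% lower) and 2.98% in RAW264.7 (1.66% higher, 1.32% lower). For the line 264 and RAW264.7 counts of 0, edgeR and DESeq2 also gave 0, and 0 members had an unadjusted limma p below 0.05. At 120 min 0 of 6 passed in line 264, 1 of 6 in line 3205 and 1 of 4 in RAW264.7, each of them lower. Of all 17450 tested genes 5.43% passed in line 264 (2.88% higher, 2.55% lower), 5.03% in line 3205 (2.89% higher, 2.14% lower) and 10.6% in RAW264.7 (5.08% higher, 5.52% lower). For line 264 at 120 min 2 members had an unadjusted limma p below 0.05, edgeR gave 0 and DESeq2 1. In the differences between responses 0 of 4 members passed at each time by limma, edgeR and DESeq2, and Arrdc3 at 120 min had an unadjusted limma p below 0.05 in each edited line. Across all genes those differences passed for 0.0173% at 60 min (0.00578% higher, 0.0116% lower) and 0.0229% at 120 min (0.00573% higher, 0.0172% lower) in line 264. In line 3205 they passed for 0.00578% at 60 min and 0.00573% at 120 min, all of them lower.

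Among the transcription factors, no LPS change passed the test, while Mlxipl and, in line 3205, Mlx differed between the lines. Mlx, the shared dimer partner of the Mondo factors, stood at 1801 and 1726 normalized reads at 0 min, 2214 and 1883 at 60 min, and 2371 and 2031 at 120 min in line 264. Line 3205 had 1180 and 1375 at 0 min, 1452 and 1416 at 60 min, and 1665 and 1463 at 120 min. RAW264.7 had 1893 and 1781 at 0 min, 1965 and 1890 at 60 min, and 2082 and 2116 at 120 min. Its replicates differed by at most 1.18-fold. Mlx lay above its unstimulated libraries at 120 min in every line, by log2 0.32 ± 0.13 in line 264 (limma, adjusted p = 0.252), 0.29 ± 0.13 in line 3205 (adjusted p = 0.319) and 0.19 ± 0.13 in RAW264.7 (adjusted p = 0.461), none of which passed.

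Line 3205 held less Mlx than RAW264.7 at every time. The difference was log2 -0.53 ± 0.12 at 0 min (limma, adjusted p = 0.017), -0.43 ± 0.12 at 60 min (adjusted p = 0.0412) and -0.43 ± 0.13 at 120 min (adjusted p = 0.0655), the last passing with the block (adjusted p = 0.0205). The 0 min call was lost without the first line 3205 library or without either RAW264.7 library (limma, adjusted p up to 0.118), and the 60 min call without any 1 of its 4 libraries (0.129 to 0.186). The ranges of line 3205 and RAW264.7 did not overlap at any time. In line 264 the corresponding values were -0.06 ± 0.12, 0.08 ± 0.12 and 0.06 ± 0.13 (limma, adjusted p 0.741 to 0.859). Mlx (chr11:101086707-101092207) shares 67 bases with the neighbouring gene Psmc3ip, whose own count was 571 to 1040 normalized reads.

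Mlxip (chr5:123394521-123457932), which encodes MondoA, had the narrowest range of the 6 genes over the libraries, although its replicates differed more than those of Mlx in RAW264.7 at 120 min, at 2171 and 3264. It ran from 2116 to 3264 normalized reads, a 1.54-fold range, with a median of 2372. No LPS response or line difference of Mlxip passed, and its log2 values ran from -0.22 ± 0.15 (line 264 over RAW264.7 at 0 min, limma, adjusted p = 0.442) to 0.17 ± 0.20 (line 264 at 120 min, adjusted p = 0.753).

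Mlxipl (chr5:135089890-135139768), which encodes ChREBP, was read abundantly in the edited lines and hardly at all in RAW264.7. In line 264 it stood at 375 and 816 normalized reads at 0 min, 380 and 656 at 60 min, and 327 and 496 at 120 min. In line 3205 it stood at 75.3 and 183 at 0 min, 70.8 and 149 at 60 min, and 35.5 and 147 at 120 min. In RAW264.7 both libraries together held 2 reads at 0 min, 1 read at 60 min and 1 read at 120 min. Replicate 2 was the higher in every edited-line group, by 1.52-fold or more. The gene passed the filter on low values mainly through its edited-line libraries, so its calls add nothing to a count of members. The ratio of line 264 to RAW264.7, from the summed reads scaled by size factors, was 537 at 0 min (95% counting interval 148 to 4435), 529 at 60 min (94.8 to 20910) and 621 at 120 min (111 to 24560). For line 3205 it was 107 at 0 min (29.3 to 890), 117 at 60 min (20.8 to 4628) and 137 at 120 min (24.4 to 5442). These intervals cover counting error only. Within the edited lines no LPS change of Mlxipl passed (limma, log2 -0.15 ± 0.79 to -0.69 ± 0.82, adjusted p 0.782 to 1).

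**Figure D3:**
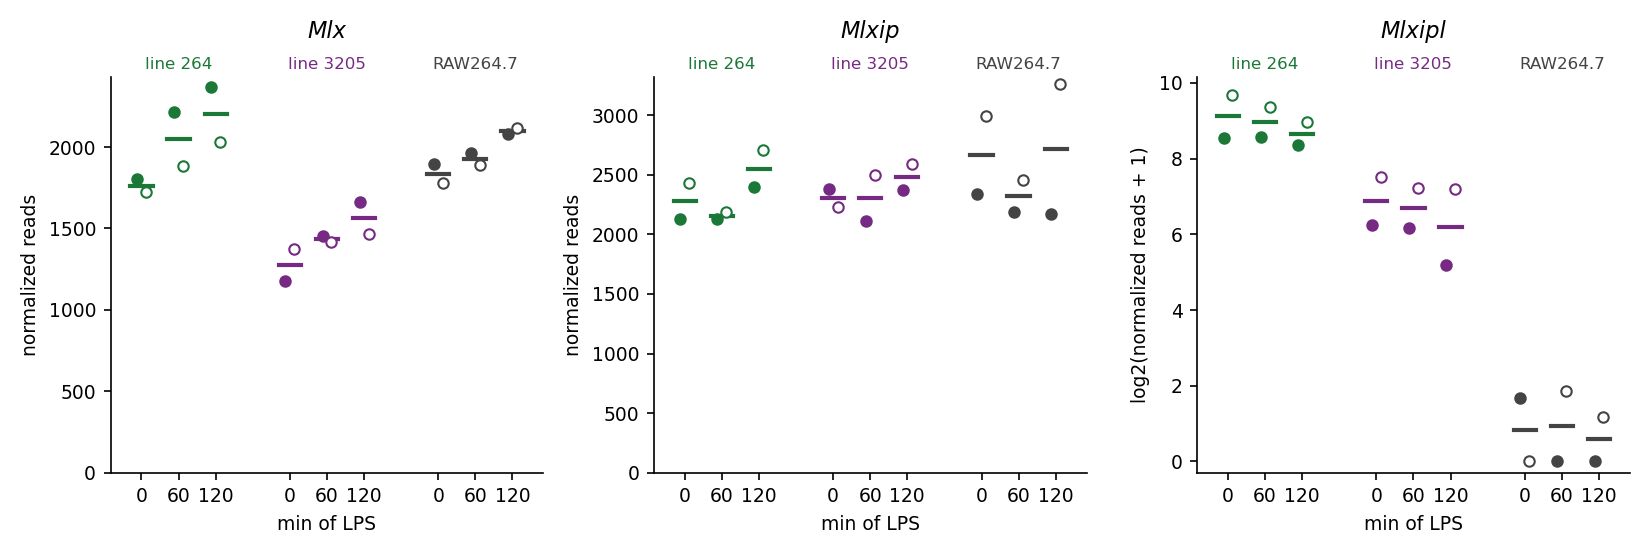
Levels of Mlx and Mlxip in normalized reads (axes from 0) and of Mlxipl as log2(normalized reads + 1), by line and min of LPS; filled points are replicate 1, open points replicate 2 and bars the mean. Mlx lies lower in line 3205 (1180 to 1665) than in RAW264.7 (1781 to 2116), and Mlxipl lies near 0 in RAW264.7.

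Counted over the tested members without Mlxipl, 0 of 4 were higher and 0 lower in line 264 than in RAW264.7 at 0 min, where 13.2% of all genes passed (7.61% higher, 5.57% lower). At that time 0 members had an unadjusted limma p below 0.05, and edgeR and DESeq2 gave 0. The count was again 0 of 4 at 60 min, where 15.3% passed (8.46% higher, 6.8% lower), with 1 unadjusted limma p below 0.05, 0 by edgeR and 1 by DESeq2. At 120 min 1 of 5 was higher and 0 lower in line 264, where 13.5% passed (7.33% higher, 6.13% lower). In line 3205 0 of 4 were higher and 1 lower at 0 min, where 14.3% of all genes passed (8.42% higher, 5.89% lower), and again at 60 min, where 15.4% passed (8.95% higher, 6.46% lower). At 120 min 1 of 5 was higher and 0 lower in line 3205, where 13.9% passed (7.94% higher, 5.99% lower). The higher member was Txnip in each edited line, and the lower one was Mlx.

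**Figure D4:**
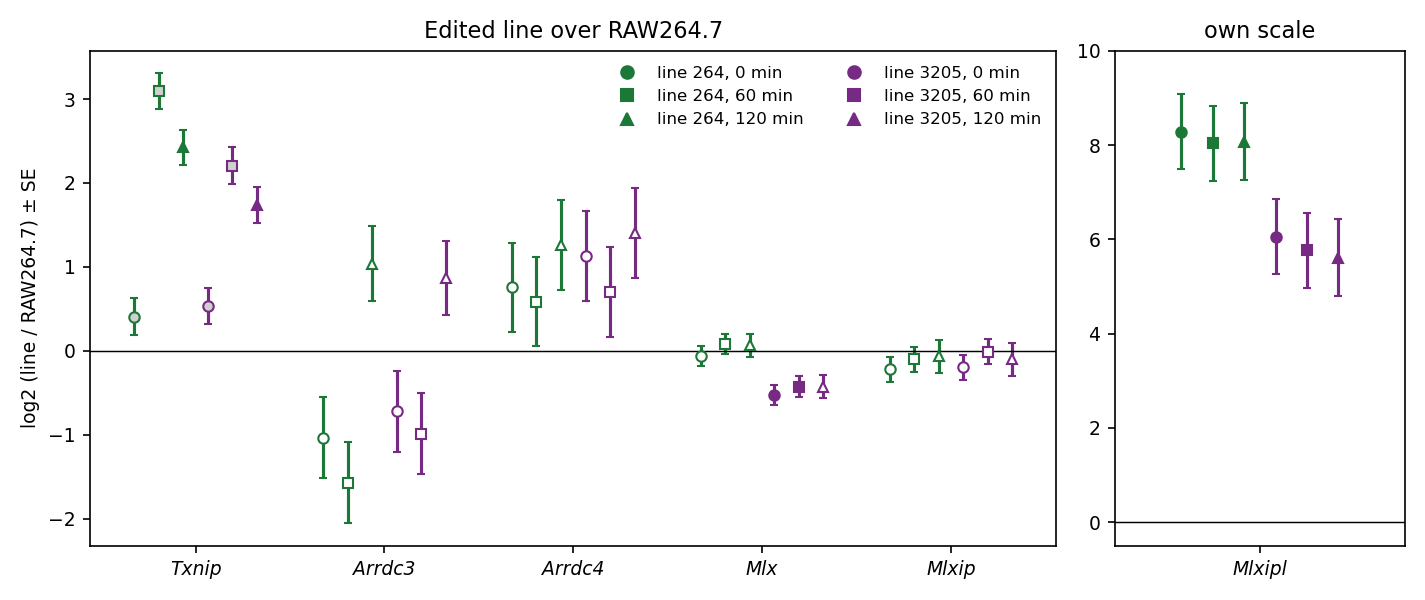
Limma log2 ratio ± SE (vertical axes) of line 264 (green) and line 3205 (purple) over RAW264.7 at 0 min (circles), 60 min (squares) and 120 min (triangles), with Mlxipl on its own scale. Filled points passed an adjusted p of 0.05, open points did not, and grey-filled Txnip points carry no test. Mlxipl passed the filter on low values mainly through the edited lines, so its points are a description. Txnip lies at 0.41 and 0.53 before LPS and between 1.74 and 3.09 after it.

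Among the other arrestins Arrdc2, a further alpha-arrestin, fell in all 3 lines at 120 min. It stood at 339 and 260 normalized reads at 0 min, 211 and 256 at 60 min, and 154 and 148 at 120 min in line 264. Line 3205 had 322 and 269 at 0 min, 190 and 181 at 60 min, and 125 and 113 at 120 min. In RAW264.7 it stood at 372 and 402 at 0 min, 148 and 135 at 60 min, and 117 and 112 at 120 min. The 120 min falls passed in line 264 (limma, log2 -0.97 ± 0.21, adjusted p = 0.0274), line 3205 (-1.31 ± 0.21, adjusted p = 0.00696) and RAW264.7 (-1.74 ± 0.21, adjusted p = 0.000825), and at 60 min in RAW264.7 (-1.45 ± 0.20, adjusted p = 0.00374). Its 60 min values in line 264 (-0.35 ± 0.20, adjusted p = 0.894) and line 3205 (-0.66 ± 0.20, adjusted p = 0.268) did not pass. At 60 min Arrdc2 was higher in line 264 than in RAW264.7 (limma, 0.71 ± 0.20, adjusted p = 0.0402). Arrdc1, which drives budding of vesicles from the plasma membrane, did not pass in any LPS response (limma, log2 -0.09 to -0.23). Of the 3 measured beta- and visual arrestins, Arrb1 fell in RAW264.7 at 120 min (limma, -0.96 ± 0.24, adjusted p = 0.0311). Its 120 min values of -0.81 ± 0.24 in line 264 (limma, adjusted p = 0.0903) and -0.79 ± 0.24 in line 3205 (adjusted p = 0.103) passed with the replicate block (adjusted p = 0.0127 and 0.0149). In the line differences Arrb2 was higher in line 264 at 120 min (limma, 1.05 ± 0.25, adjusted p = 0.0215).

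Few partners of the members passed in the LPS responses. Of the 7 thioredoxin system genes, 0 passed in any LPS response by limma, and the list's median log2 fold change at 120 min was 0.31 in line 264, 0.10 in line 3205 and 0.19 in RAW264.7, where the medians of all genes were -0.01, -0.03 and 0. With the replicate block 4 rose at 120 min in line 264, 1 in line 3205 and 2 in RAW264.7. Of all 17450 genes, 1356, 1253 and 1974 rose with the block in these lines. Txn1, which encodes the thioredoxin that TXNIP binds, stood at 10386 and 10082 normalized reads in unstimulated line 264, against 13450 and 15463 in RAW264.7 (limma, log2 -0.50 ± 0.12, adjusted p = 0.0188). Nucleoredoxin, encoded by Nxn, was higher in line 264 at all times (limma, 1.42 ± 0.34 at 0 min, adjusted p = 0.0208). Of 7 measured NEDD4-family ligase genes, 0 passed in any LPS response, and with the block Wwp1 fell in line 3205 and RAW264.7 at 120 min (limma, adjusted p = 0.0494 and 0.0162). Nedd4l, a ligase for ion channels, was at 336 and 246 in unstimulated line 3205, against 76.2 and 68.3 in RAW264.7 (limma, 1.98 ± 0.29, adjusted p = 0.00149), and Wwp1 was also higher there (0.79 ± 0.15, adjusted p = 0.00688).

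The main glucose transporter gene rose in line 264 and RAW264.7 at 120 min. Slc2a1, which encodes the GLUT1 that TXNIP restrains, stood at 9634 and 6275 normalized reads at 0 min, 24665 and 13868 at 60 min, and 38571 and 22621 at 120 min in line 264. In line 3205 it stood at 7743 and 4457 at 0 min, 18196 and 8569 at 60 min, and 27427 and 11936 at 120 min. RAW264.7 had 5753 and 3669 at 0 min, 12388 and 10009 at 60 min, and 17799 and 12751 at 120 min. At 120 min it rose in line 264 (limma, log2 1.93 ± 0.45, adjusted p = 0.0368) and RAW264.7 (1.71 ± 0.45, adjusted p = 0.0381), with 1.62 ± 0.45 in line 3205 (adjusted p = 0.0767), which passed with the replicate block (adjusted p = 7.8e-05). Slc2a6, a lysosomal hexose transporter gene, also rose in line 264 (limma, 0.68 ± 0.17, adjusted p = 0.0467) and RAW264.7 (0.94 ± 0.17, adjusted p = 0.00621) at 120 min. Of 9 measured genes of glucose uptake and phosphorylation, 2 thus rose in line 264 (5.43% of all genes passed), 0 passed in line 3205 (5.03%) and 2 rose in RAW264.7 (10.6%). With the block 3, 3 and 2 of them rose, and 1356, 1253 and 1974 of all 17450 genes. In the differences between responses 0 of the 9 passed, with and without the block. The hexokinase gene Hk2 stood at 0.68 ± 0.17 in line 264 (limma, adjusted p = 0.0506), 0.56 ± 0.17 in line 3205 (adjusted p = 0.112) and 0.16 ± 0.17 in RAW264.7 (adjusted p = 0.659) at 120 min, and both edited lines passed with the block (adjusted p = 0.00426 in line 264 and 0.0127 in line 3205).

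**Figure D5:**
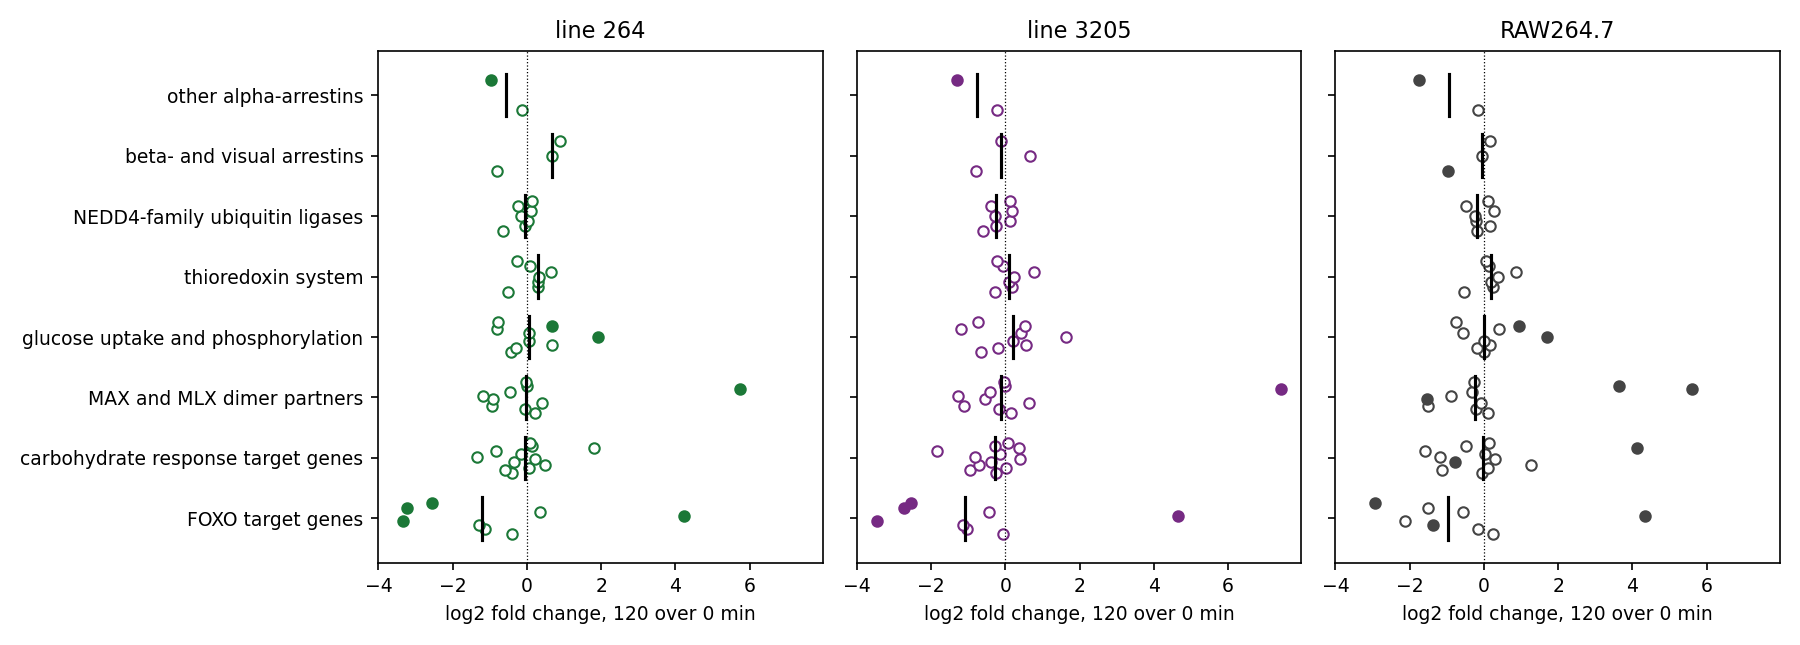
Limma log2 fold change at 120 min of LPS over 0 min (horizontal axis) of the measured genes of 8 lists around the 6 members, by line. Filled points passed an adjusted p of 0.05, open points did not, and black bars are list medians, which lie within 0.31 of 0 except for the FOXO targets (-1.20, -1.09 and -0.97 in line 264, line 3205 and RAW264.7), the other alpha-arrestins and, in line 264, the beta- and visual arrestins.

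Of 12 measured carbohydrate response targets, 1 passed a difference between LPS responses, Bhlhe40 at 60 min. Bhlhe40, a circadian and stress-responsive repressor gene, stood at 1833 and 2031 normalized reads at 0 min, 1005 and 1401 at 60 min, and 1624 and 4564 at 120 min in line 264. In line 3205 it had 1339 and 1271 at 0 min, 596 and 651 at 60 min, and 1174 and 542 at 120 min. RAW264.7 had 727 and 659 at 0 min, 1750.2 and 1909 at 60 min, and 1212 and 2279 at 120 min. At 60 min every LPS library lay below the unstimulated ones in the edited lines and above them in RAW264.7. Bhlhe40 rose 2.64-fold in RAW264.7 at 60 min (limma, adjusted p = 0.0011) and fell in line 3205 (log2 -1.06 ± 0.16, adjusted p = 0.00966), with -0.70 ± 0.16 in line 264 (adjusted p = 0.0895, and 0.0173 with the replicate block). Its 60 min response was lower than that of RAW264.7 by log2 -2.10 ± 0.23 in line 264 (limma, adjusted p = 0.0351) and -2.46 ± 0.23 in line 3205 (adjusted p = 0.0158). That was 1 of 3 genes of all tested in line 264 and the only one in line 3205. For line 264, 0 genes passed this difference without the filter on low values, and 0 with only the compared groups fitted. Without the mean-dependent prior 0 genes passed as lower in line 264. With any 1 library of the compared groups left out, 0 or 1 of all genes passed for line 264 and 0 for line 3205. At 0 min both edited lines held more Bhlhe40 than RAW264.7, by log2 1.48 ± 0.16 for line 264 (limma, adjusted p = 0.000224) and 0.91 ± 0.16 for line 3205 (adjusted p = 0.00412). At 60 min both held less, by -0.62 ± 0.16 for line 264 (limma, adjusted p = 0.0265) and -1.55 ± 0.16 for line 3205 (adjusted p = 0.000173).

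Rgs16, a regulator of G protein signalling, was nearly unread in the edited lines. Both libraries together held 1 read at 0 min, 0 at 60 min and 7 at 120 min in line 264, and 0, 0 and 1 in line 3205, against 48, 112 and 689 in RAW264.7. Rgs16 passed the filter on low values through RAW264.7, so its difference between the lines is given as reads, without a test. At 120 min 0 of the 12 targets passed the LPS response in line 264 or line 3205, where 5.43% and 5.03% of all genes passed. In RAW264.7, where 10.6% passed, Rgs16 rose and Elovl6 fell. Elovl6, a fatty acid elongase gene, changed by log2 -0.77 ± 0.21 there (limma, adjusted p = 0.0419). Klf10, a glucose-responsive repressor gene, stood at -0.84 ± 0.64, -1.85 ± 0.64 and -1.59 ± 0.64 in line 264, line 3205 and RAW264.7 (limma, adjusted p 0.165 to 0.574). Acacb, a carboxylase gene of fatty acid metabolism, was at 309 and 149 normalized reads in unstimulated line 3205, against 33.8 and 46.3 in RAW264.7 (limma, 2.41 ± 0.58, adjusted p = 0.0209). Over the 12 targets 1 was higher in line 264 than in RAW264.7 at 0 min, where 7.61% of all genes were called higher. In line 3205 there were 2 higher, where 8.42% of all genes were. The 1 called lower in each line was Rgs16, which is not counted because it passed the filter through RAW264.7. Of 10 measured dimer partners of MAX and MLX, 1 rose at 120 min in line 264 (5.43% of all genes passed) and in line 3205 (5.03%). In RAW264.7 2 rose and 1 fell (10.6%). Of those 2, Mycl changed by log2 3.65 ± 0.52, against 0 in both edited lines. It passed the filter on low values through RAW264.7, so its rise is a description. Myc, a growth-driving partner of MAX, rose in every line, to 242 and 197 normalized reads at 120 min, against 3.64 and 2.57 at 0 min, in line 264. In line 3205 it reached 1603 and 1318, against 14.6 and 3.59, and in RAW264.7 3977 and 3540.0, against 133 and 42.8. The adjusted p of these rises was 9.3e-05 to 0.000483 (limma). Max, Mnt and Mxd1 did not pass in any LPS response, and with the block Mnt, a repressor partner of MAX, passed as lower in line 3205 and RAW264.7 at 120 min (limma, adjusted p = 0.0467 and 0.00793).

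FOXO factors are another known driver of Txnip, and 8 of their target genes were measured. At 120 min 3 fell and 1 rose in line 264 and in line 3205, and 2 fell and 1 rose in RAW264.7, where 5.43%, 5.03% and 10.6% of all genes passed. With the replicate block 5, 5 and 4 fell and 1 rose in each. Of all 17450 genes, 1503, 1243 and 2163 fell and 1356, 1253 and 1974 rose with the block. The falls of Fbxo32 and Pik3ip1 in line 264 were known when the list was made, so these falls and the counts are a description. Sesn1, a stress-response gene that restrains mTORC1, stood at 637 and 895 normalized reads at 120 min, against 4756 and 4116 at 0 min, in line 264. Line 3205 had 786 and 1059 at 120 min, against 5874 and 4823 at 0 min, and RAW264.7 had 260 and 375, against 2212 and 2603. The falls were log2 -2.55 ± 0.24, -2.54 ± 0.24 and -2.94 ± 0.24 in line 264, line 3205 and RAW264.7 (limma, adjusted p 7.8e-05 to 0.000256). Pik3ip1, an inhibitor of PI3 kinase, fell by 3.24 ± 0.63 on the log2 scale in line 264, given without a test. It fell by 2.72 ± 0.63 in line 3205 (limma, adjusted p = 0.0384), with -1.51 ± 0.63 in RAW264.7 (adjusted p = 0.184, and 0.0379 with the block). Fbxo32, a ubiquitin ligase gene of muscle wasting, changed by log2 -3.33 ± 0.60 in line 264, given without a test. It fell in line 3205 (limma, -3.46 ± 0.60, adjusted p = 0.0103), with -2.12 ± 0.60 in RAW264.7 (adjusted p = 0.0532, and 0.018 with the block). Gadd45a, a DNA damage response gene, rose in all 3 lines.

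Among the genes whose pattern was most like that of Txnip over the 12 libraries of each table were Tor4a (Pearson r of 0.938 in the table where it was smaller), Cnr2 (0.927), Ppcs (0.923) and Pla2g15 (0.917), out of 10128 genes compared. Tor4a stood at 3061 and 3054 normalized reads in unstimulated line 264, 2578 and 2191 in line 3205, and 2863 and 2271 in RAW264.7. At 60 min it stood at 2253 and 2105 in line 264, 1632 and 1421 in line 3205, and 1064 and 900.3 in RAW264.7. The lines stood in that order for Txnip at 60 min too, but Tor4a was picked for its likeness to Txnip. At 0 min the lowest Tor4a library was of line 3205, where Txnip had its highest mean. For Arrdc4 the closest were Gng2 (0.952), Gnpda1 (0.910) and Slc25a36 (0.893), followed by L3hypdh and Mettl7a1 (0.892 each). For Arrdc3 they were weaker, with Tmem64 (0.772), Zkscan1 (0.763), Polr3k (0.741), Mzt1 (0.725) and Tgfbr2 (0.721). The tables share their 6 unstimulated libraries, so these values are a description with no test.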

How the data were processed

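Of the 74 samples of the series, the 18 RNA libraries of line 264, line 3205 and RAW264.7 were used and 56 were not analysed here. The submitters' processing notes name Trim Galore 0.5.0, STAR 2.4.2, featureCounts (Subread 1.4.6), DESeq2, R 3.4.0 and the build mm10. The signal deposited for each gene is a read count divided by 1 size factor per library: 100% of values were whole reads within 0.1 read. Unstimulated values were alike in both deposited tables, within 0.0469 normalized reads. The authors also deposited log2 fold changes, standard errors and p-values, which match a test against a log2 fold change of 1 and are cited for 1 comparison.

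A limma 3.58.1 model with a mean-dependent prior (R 4.3.3) was fitted to log2(value + 1) of each table's 12 libraries, every group having its own mean. Genes averaging 1 or more were kept (17301 and 17450). A Benjamini-Hochberg adjusted p below 0.05 over all of them counts as passing, in 16 comparisons. On simulated data of the RAW264.7 responses the model recovered most changed genes; false calls were few among well-read genes and exceeded the aim among genes of low counts, most at 60 min. On the recovered reads edgeR 4.0.16 called 202 to 2324 genes per LPS response or line difference, against 206 to 2666 by limma. DESeq2 1.42.0 was an alternative. The labels do not say whether replicate numbers pair the samples. The deviations of replicate 1 from replicate 2 correlated between groups. The correlation was 0.16 to 0.56 over 15 pairs in the 60 min table and 0.22 to 0.56 in the other. Blocked values therefore stand beside results they change. The 6 members, the lists and the tests were chosen with earlier results of these data known. Genes named from a list are up to 3 with the smallest p in a comparison, plus a fixed few. Descriptive values came from scipy 1.17.1 and pandas 2.3.3 in Python 3.11.15, and figures from matplotlib 3.10.9. Promoters and positions are RefSeq's, build GRCm38.p6. A further gene with a pattern like that of Txnip is not reported here.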

Additional observations from a re-analysis of the deposited data

How the results depend on the processing

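The counts of members passing were recomputed under pseudocounts of 0.5 and 5, no filter, no trend, the replicate block, only the groups compared, TMM scaling, edgeR with and without the block, DESeq2 and each library left out. A fit over all 18 libraries was added after seeing the data. Mlxipl passed the filter on low values mainly through its edited-line libraries, so counts for line differences are given without it unless stated. Without a trend the line 3205 response at 60 min had 0 passing, and with only the groups compared it had 0 at 60 min and 0 at 120 min. RAW264.7 at 120 min had 2 with the replicate block, with edgeR and the block and with DESeq2. Line 264 at 120 min had 1 with the replicate block, edgeR and the block, DESeq2 and the fit over 18 libraries. Line 3205 at 120 min had 2 with edgeR and the block. Line 264 over RAW264.7 had 1 at 60 min with the replicate block, edgeR and the block and DESeq2. It had 2 at 120 min with the replicate block and with edgeR and the block. With the replicate block 4648 of all 17301 genes passed at 60 min and 4415 of 17450 at 120 min. Counted with Mlxipl, line 3205 over RAW264.7 had 1 at 0 min with only the groups compared. Counted so, it had 1 at 60 min without a filter, without a trend or with TMM scaling. It had 4 at 120 min, again with Mlxipl, with the replicate block and with edgeR and the block. At 0 and 60 min the 1 was Mlxipl itself, and Mlx did not pass there. At 120 min 3 passed without Mlxipl with the replicate block. Other counts of members stayed within 1.5 times the main one, for settings other than a left-out library. That holds with Mlxipl counted for line 3205 over RAW264.7 and left out for line 264 over RAW264.7. Without Mlxipl line 3205 over RAW264.7 had 2 at 0 min with the replicate block and 2 at 120 min with DESeq2. The main test called 1 at each of these times. Over all genes the counts moved more and in both directions. For RAW264.7 limma called 515 at 60 min and 1849 at 120 min, edgeR with the block 1220 and 3919, and limma with only the groups compared 88 and 934. With 1 library left out the RAW264.7 counts were 179 to 247 and 671 to 981. With only the groups compared, line 264 had 7 at 60 min and 0 at 120 min, where the main test called 206 and 948, and line 3205 had 11 and 18, where it called 212 and 878. DESeq2 called 514 and 1797 in line 264, 505 and 1692 in line 3205, and 870 at 60 min in RAW264.7. The cause of these changes was not tested.

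With 1 library left out the counts ran from 0 to 1 for the LPS response of line 3205 at 60 min, were 0 in each case for RAW264.7 at 120 min, ran from 1 to 3 for line 3205 over RAW264.7 at 0 min and were 1 in each case at 60 min. The left-out counts for line 3205 over RAW264.7 include Mlxipl, which passed in each case. At 60 min Mlxipl was the only member that passed, and the Mlx call was lost in each case. The block changed 7 calls of members, given beside the results, and no other. Blocked values of list genes and list counts stand there too. Of the members' tested values under the other settings, 928 kept their side of the threshold, 21 passed where the main test did not and 7 no longer passed, and none changed direction while called. The untested Txnip log2 values moved by less than 1 SE under these settings, whereas with 1 library left out 8 of 56 moved by more and 48 by less. Line 3205 over RAW264.7 at 0 min then ran from 0.22 to 0.84, and the RAW264.7 response at 120 min from -2.94 to -2.51. The median of all genes shifted by less than 0.1 on the log2 scale with TMM scaling. Genes near 0 reads, Mlxipl in RAW264.7 above all, are limited by depth.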
